A study of Mus musculus and Homo sapiens with 12 samples.

Results

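The integrin and laminin genes were followed through CUT&Tag peak lists for histone butyrylation (Kbu) and acetylation (Kac). The members were all protein-coding genes whose symbol is an integrin α or β subunit or a laminin α, β or γ chain. This rule found 38 of 20033 human genes in the GENCODE annotation of GRCh38, 26 integrin and 12 laminin genes. It found 37 of 21887 mouse genes in the RefSeq table of GRCm38, 26 integrin and 11 laminin genes. CUT&Tag cuts out DNA beside an antibody-bound histone mark, so a listed peak marks a place where fragments were denser than in their surroundings.

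The human samples were CCD841, a colon epithelial cell line, treated with 1 mM sodium butyrate (NaBu) for 12 to 16 h. There were 2 replicates for butyrylated lysine 18 of histone H3 (H3K18bu) and 2 for butyrylated lysine 12 of histone H4 (H4K12bu). All 4 libraries were from treated cells, so no effect of NaBu could be measured. The mouse samples were large intestine of male CETP-ApoB-100 transgenic mice, a human lipid-transport model, with 2 replicates for each of 4 marks. The labels put the H3K18bu and H4K12bu libraries on a high fat, high sucrose diet with 5% arabinoxylan, a fermentable fibre, and the H3K18ac and H4K12ac libraries on that diet without the fibre. In the mouse, acyl group and labelled diet therefore cannot be told apart. The study's methods describe the fibre as given to the whole high fat, high sucrose group, so the diet of the Kac libraries is uncertain. Nothing in the labels says that replicates of the CCD841 libraries were separate cultures.

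Integrins are cell surface receptors made of an α and a β subunit that link extracellular matrix, or other cells, to the actin or keratin cytoskeleton. Laminins are three-chain proteins of the basement membrane, each with an α, a β and a γ chain, and several integrins bind them. In gut epithelium the basal cell surface sits on laminin, and the integrin of α6 and β4 chains holds hemidesmosomes to a laminin that holds the α3 and β3 chains. Leukocytes and platelets carry integrins of their own, built around β2, β7 and β3 chains.

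Stretches of sequence from or beside regions described below are shown first. ITGA4 and LAMA4 had the strongest H3K18bu regions at annotated gene starts among integrins and among laminins, by the lower −log10 p of the replicates, LAMB3 is the hemidesmosomal laminin gene with both marks at its start, and ITGAV, ITGB1 and mouse Lamb3 were added after their values were seen. Each human stretch was taken from a H3K18bu region found in both CCD841 replicates, clipped so that it held no annotated exon of a protein-coding gene. After clipping, only the LAMB3 stretch holds the summit of the strongest peak in its region. The ITGA4 stretch lies 650 to 716 bases after the gene start, with that summit at 133. The LAMA4 stretch lies 1158 to 1250 bases after the gene start, with that summit at 404. All are written 5′ to 3′ on the strand of the gene. Capitals mark every match to TGANTCA, the AP-1 motif, or to GGGCGG, the GC box, searched on both strands, and no match of one motif overlapped a match of the other. The ITGA4 stretch lies in the first intron (GRCh38 chr2:181457852-181457918, + strand) and the ITGAV stretch is the 200 bases before the gene start (GRCh38 chr2:186589810-186590009, + strand). The ITGB1 stretch lies 255 to 96 bases before the start of its canonical transcript (GRCh38 chr10:32958326-32958485, − strand). The LAMA4 stretch is intronic (GRCh38 chr6:112253689-112253781, − strand). The LAMB3 stretch lies in the first intron of the canonical transcript and directly before the start of a shorter transcript (GRCh38 chr1:209651395-209651493, − strand). The mouse Lamb3 stretch is the 250 bases before a RefSeq start (GRCm38.p6 chr1:193301744-193301993, + strand), taken from RefSeq.
ITGA4: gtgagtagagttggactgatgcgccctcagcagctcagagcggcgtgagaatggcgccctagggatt
ITGAV: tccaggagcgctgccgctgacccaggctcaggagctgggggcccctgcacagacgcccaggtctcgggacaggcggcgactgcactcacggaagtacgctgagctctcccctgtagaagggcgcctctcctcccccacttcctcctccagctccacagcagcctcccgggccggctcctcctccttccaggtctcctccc
ITGB1: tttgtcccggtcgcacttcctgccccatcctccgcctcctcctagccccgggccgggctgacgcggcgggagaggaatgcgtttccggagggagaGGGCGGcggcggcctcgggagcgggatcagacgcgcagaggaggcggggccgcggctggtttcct
LAMA4: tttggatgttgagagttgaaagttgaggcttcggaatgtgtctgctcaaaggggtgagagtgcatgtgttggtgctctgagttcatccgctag
LAMB3: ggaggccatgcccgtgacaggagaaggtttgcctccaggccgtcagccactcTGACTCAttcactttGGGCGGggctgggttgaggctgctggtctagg
Lamb3: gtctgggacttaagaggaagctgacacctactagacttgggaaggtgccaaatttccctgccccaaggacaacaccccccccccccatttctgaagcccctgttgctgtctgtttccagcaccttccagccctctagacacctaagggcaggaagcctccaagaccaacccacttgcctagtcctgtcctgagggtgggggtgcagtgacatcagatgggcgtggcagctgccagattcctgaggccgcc

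The LAMB3 stretch held 1 AP-1 match and 1 GC box, the ITGB1 stretch held 1 GC box, and neither motif was found in the other 4. Among windows of the same length before the start of all 20033 human genes, 2.12% of 99-base windows held an AP-1 match and 37.4% a GC box, and 44.1% of 160-base windows held a GC box. The AP-1 motif was in 1.33% of 67-base, 1.96% of 93-base and 4.4% of 200-base windows, and the GC box in 30.5%, 36.4% and 46.8%. Of the human stretches only that of ITGAV lies directly before the annotated gene start. The windows are therefore not matched in position to the other human stretches. For the mouse stretch the shares were 6.13% and 42.6% of 21263 windows of 250 bases. In the 200 bases before the annotated start, 2 of 38 members, among them ITGAD, had an AP-1 match and 21 of 38 had a GC box. A match is a string of letters and was not tested as a binding site.

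The 4 CCD841 lists were of nearly equal length, 299296 to 299720 peaks, close to the limit set in peak calling. After rows that share bases were joined, they held 211088 and 229104 H3K18bu regions and 207129 and 282656 H4K12bu regions. The pileup, the number of fragments over the peak, had a median of 15 and 12 in H3K18bu replicates 1 and 2 and of 15 and 7 in H4K12bu replicates 1 and 2. A region was counted for a mark only where peaks of both replicates shared at least 1 bp. The lists carry peaks, not reads, so library depth is not in them. H4K12bu replicate 2, with the lowest pileups, bears on every H4K12bu count below, since 54.7% of its regions passed a q of 0.05 against 100% in the other 3 libraries.

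In CCD841 cells 12 of 38 integrin and laminin genes carried a H3K18bu region within 1 kb of the annotated start in both replicates, 31.6% against a background of 30.9% of all protein-coding genes. These were 8 integrin genes, ITGA1, ITGA2, ITGA4, ITGA11, ITGAD, ITGAV, ITGB1 and ITGB7, and 4 laminin genes, LAMA2, LAMA4, LAMB3 and LAMC1. For H4K12bu the count was 4 of 38, ITGA4, ITGAV, ITGB7 and LAMB3, against 14.4% of all genes. All 4 also carried H3K18bu at the start, and 11% of all genes carried both marks there. The share of members with a marked start was thus near that of genes at large for both marks. For H3K18bu replicate 1 alone gave 15 members, against 40.3% of all genes, and replicate 2 alone gave 21, against 45.6%. Each H4K12bu replicate alone gave 8, against 27.8% of all genes in replicate 1 and 27.3% in replicate 2.

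**Figure D1:**
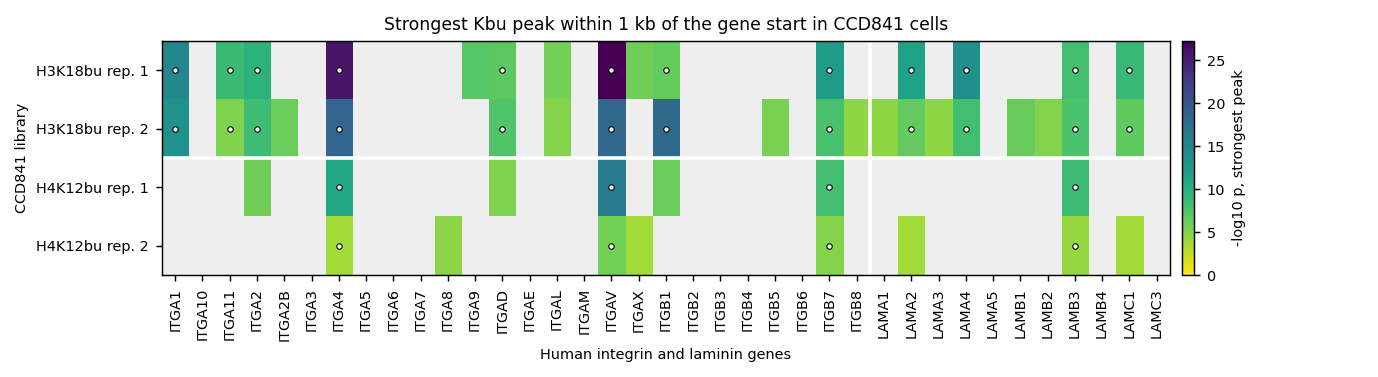
Strongest peak within 1 kb of the annotated start of 37 of the human genes (columns, integrins left of the white line) in the 4 CCD841 libraries (rows), as −log10 p from the deposited lists on a linear colour scale. Grey marks no listed peak, white dots mark the 12 H3K18bu and 4 H4K12bu starts where peaks of both replicates share bases, and ITGA4 and ITGAV are the strongest columns.

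ITGA4, the α chain that pairs with β1 or β7 on lymphocytes, and ITGAV, the α chain of receptors for matrix proteins with an RGD sequence, had the strongest H3K18bu regions at annotated gene starts. At ITGA4 the H3K18bu pileup was 32 in replicate 1 and 23 in replicate 2, with −log10 p of 25.6 and 18.4. At ITGAV it was 35 and 23, with −log10 p of 27.3 and 18.2. The H4K12bu pileup was 15 and 5 at ITGA4, with −log10 p of 10.9 and 3.77, and 21 and 8 at ITGAV, with −log10 p of 16.1 and 5.8. At a q below 0.05 in both replicates the ITGA4 H4K12bu start region was lost, since replicate 2 had a −log10 q of 1.26. Replicate 1 was higher than replicate 2 in each of these pairs. The ITGAV region, GRCh38 chr2:186589706-186590241, covered the upstream stretch printed above as well as the first bases of the gene.

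ITGA1, whose chain pairs with β1 as a collagen receptor, followed for H3K18bu with pileups of 21 and 17 and −log10 p of 14.7 and 13.4. Its annotated start is also the annotated start of PELO, on the same strand, so the region cannot be assigned to either gene. The other collagen receptor chains ITGA2, at pileups of 16 and 14, and ITGA11, at 20 and 14, had a start region as well, and ITGA10 had no listed start peak in any of the 4 libraries. In this group 3 of 4 genes had a H3K18bu start region and 0 of 4 a H4K12bu start region, against the 30.9% and 14.4% of all genes given above. The laminin receptor α genes ITGA3, ITGA6 and ITGA7 had no listed start peak in any CCD841 library, 0 of 3 for both marks against the same shares. ITGA5, the fibronectin receptor α chain, had none either.

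Among the laminins LAMA4, an α chain of vessel and muscle basement membranes, ranked first for H3K18bu by the lower −log10 p of the replicates, with pileups of 21 and 13 and −log10 p of 13.6 and 8.31. Its region, chr6:112253689-112254586, spans the start of the canonical transcript. LAMB3, the β chain of the hemidesmosomal laminin, ranked second with pileups of 24 and 19 and −log10 p of 8.28 and 7.76. LAMC1, the γ chain most laminins share, followed with pileups of 13 and 11 and −log10 p of 8.94 and 6.69. LAMB3 was the only laminin gene of the 12 with a H4K12bu start region, with pileups of 19 and 8 and −log10 p of 8.57 and 4.3.

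Several members have more than 1 start, and the annotated gene start was not where their strongest marks lay. The LAMB3 regions of both marks lay about 1 kb inside the gene and covered the start of a shorter transcript at GRCh38 chr1:209651394, next to the AP-1 match printed above, the H3K18bu region being GRCh38 chr1:209651374-209651493. In LAMA3, the α chain of the same laminin, no H3K18bu region of both replicates lay at the annotated start, where replicate 2 alone had a peak at a pileup of 7. A region did lie over the start of a shorter transcript at position 23873020, 184 kb into the gene, with pileups of 16 and 9 and −log10 p of 10.3 and 5.1. In ITGB1, the β chain of most matrix receptors, the canonical transcript starts 47.6 kb inside the annotated gene. A H3K18bu region of 653 bp, chr10:32958173-32958825, lay over that canonical start with pileups of 31 and 31 and −log10 p of 23.3 and 22.4. The peaks at the annotated ITGB1 start were weaker in replicate 1, with −log10 p of 6.44 against 17.8 in replicate 2. At the start of any annotated transcript 23 of 38 members were marked by H3K18bu and 13 by H4K12bu, against 43.4% and 34.5% of all genes. With canonical starts, a choice made after the data were seen, the counts were 14 and 5, against 32.3% and 14.7% of all genes, the gains being ITGB2 and ITGB5 for H3K18bu and ITGB2 for H4K12bu.

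Inside their gene bodies 36 of 38 members held a H3K18bu region of both replicates and 31 held a H4K12bu region, against 60% and 62.3% of all genes. These genes are long, with a median length of 80.6 kb against 27.5 kb for all protein-coding genes, so counts were also taken per kb. The 305 H3K18bu regions of the members came to a median of 0.0815 per kb of gene, against 0.0273 for all genes. The 200 H4K12bu regions came to 0.0553 per kb, against 0.0365. Pooled over all their bases the members held 0.0757 H3K18bu regions per kb against 0.048, and 0.0497 H4K12bu regions per kb against 0.0521. The H4K12bu median and pooled density therefore stood on opposite sides of the values for all genes. Genes with no region enter the medians as 0, so the medians per kb are not matched for gene length. No test was made, since the design holds no second condition for these cells.

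The marks were spread differently over the genes. ITGA3, the α chain of an epithelial laminin receptor, had the highest H4K12bu density, 10 regions or 0.29 per kb, with 15 regions in replicate 1 and 14 in replicate 2, against 3 for H3K18bu. LAMB2, a β chain of nerve, muscle and kidney basement membranes, followed with 3 H4K12bu regions in a gene of 12.0 kb, and had no H3K18bu region. LAMA3 held 25 H3K18bu and 5 H4K12bu regions, with 51 and 47 H3K18bu regions in the separate replicates and 11 and 10 for H4K12bu. ITGB6, an epithelial β chain that pairs with αv, held 13 against 1. ITGB5, a β chain that pairs with αv, was even, with 21 and 20 regions, as was ITGA2, with 10 and 11. LAMA5, the α chain of laminins under mature epithelium, held 4 H3K18bu and 7 H4K12bu regions, LAMB1 5 and 9, and ITGA5 3 of each. ITGB8 held no region of either mark in both replicates. ITGB7 was at 0.188 per kb for both marks, on 3 regions each in a gene of 16.0 kb. Since the marks come from separate antibodies and libraries, a difference in number between them is not a difference in the amount of butyrylation.

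**Figure D2:**
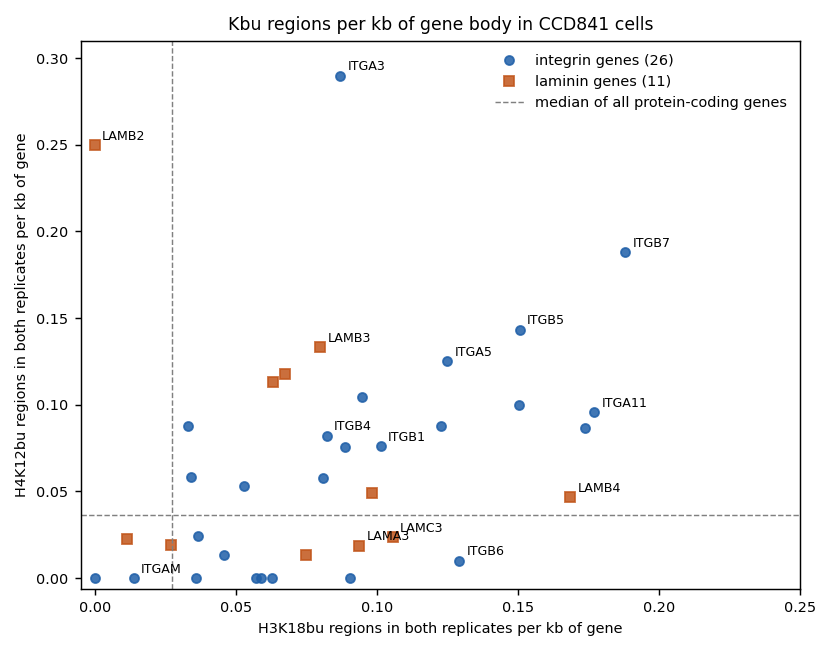
Regions found in both replicates per kb of gene body for H3K18bu (x axis) and H4K12bu (y axis), 1 point for each of 37 human integrin (circle) or laminin (square) genes. Dashed lines are the medians of all protein-coding genes, 0.0273 and 0.0365 per kb, and ITGA3 lies highest.

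By the lower −log10 p of the replicates, the strongest H3K18bu region of any member lay in an intron of ITGB1. This region was at chr10:32980479-32980997, about 25 kb from the annotated start. Its pileups were 38 and 42, with −log10 p of 25.1 and 28.9, and it overlapped a H4K12bu region. ITGA11 held 3 of the 7 strongest H3K18bu regions of members, all in introns, and the strongest H4K12bu region of members. That H4K12bu region, chr15:68342328-68342958, had pileups of 55 and 24 and −log10 p of 28.9 and 13.7. In ITGA3 the strongest H3K18bu region was in the first intron, with pileups of 43 and 27, and the strongest H4K12bu region was over an exon, with pileups of 58 and 25. In ITGA6 the strongest region was H3K18bu in the first intron, 14.9 kb from the start, with pileups of 25 and 19. In ITGB4, the partner of ITGA6 in hemidesmosomes, it was H3K18bu over an exon, with pileups of 25 and 21. ITGB4 and ITGA6 thus carried Kbu in the gene body and no region at the annotated start.

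**Figure D3:**
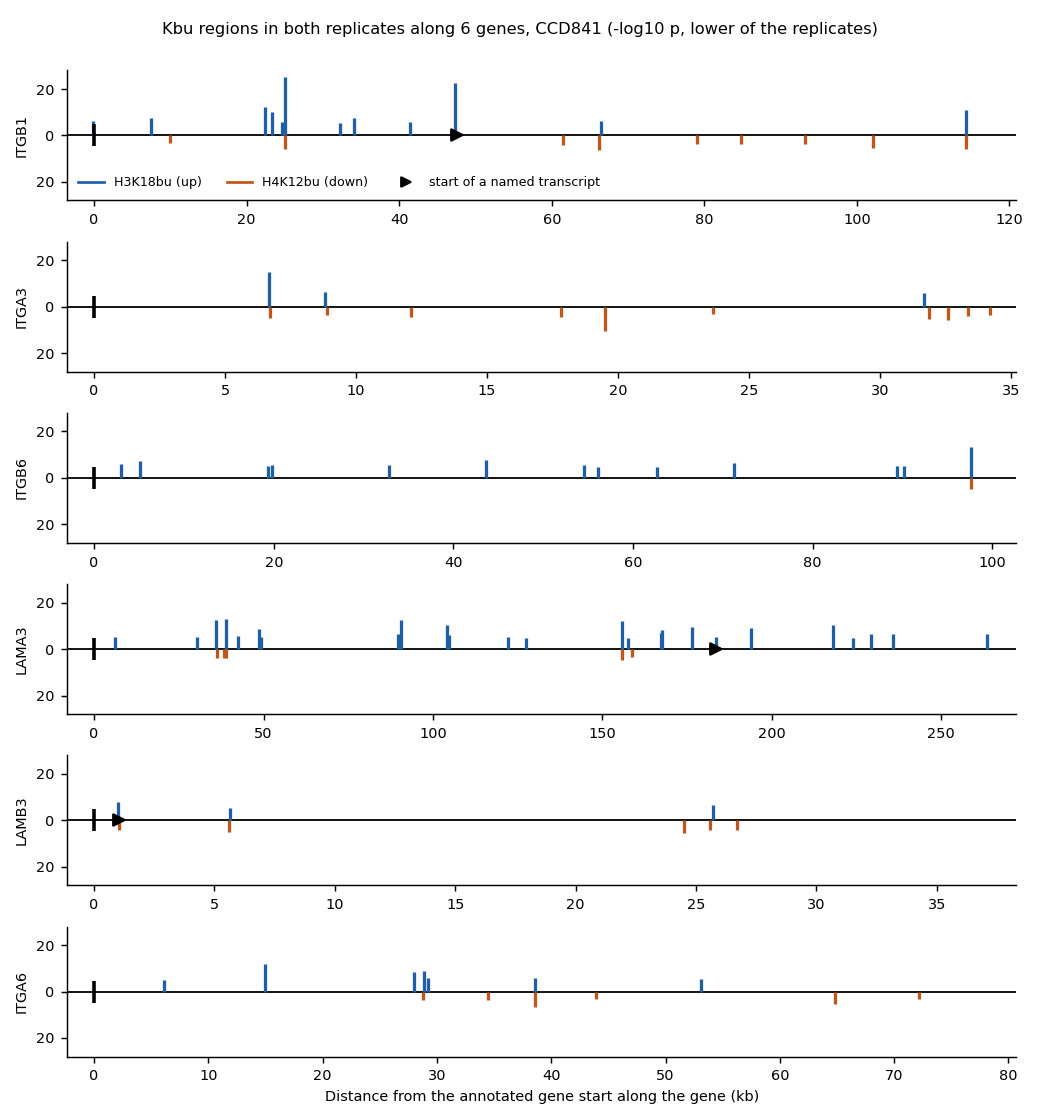
Regions found in both CCD841 replicates along 6 genes, by distance from the annotated start (kb, x axis, a scale for each gene). Line height is the lower −log10 p of the replicates, H3K18bu upward and H4K12bu downward, the black bar is the annotated start and the arrowhead the start of the canonical ITGB1 transcript or of a shorter LAMA3 or LAMB3 transcript, and ITGB1 carries its tallest lines at about 25 kb and at the arrowhead.

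By position, 13 of the 305 H3K18bu regions in members lay within 1 kb of the start, 4.26% against 8.25% of such regions in all genes. Exons held 16.4% against 10.7%, first introns 18.4% against 20.2% and other introns 61% against 60.9%. For H4K12bu the shares were 2% at the start against 2.98%, 15.5% in exons against 16.8%, 15% in first introns against 16%, and 67.5% in other introns against 64.3%. In members 28.2% of H3K18bu regions overlapped a H4K12bu region, against 39.4% in all genes, and 43% of H4K12bu regions overlapped a H3K18bu region, against 36.4%. Longer genes have proportionally less of their body near the start, and members are long, so these shares are not matched for length.

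The leukocyte and platelet integrins ITGAL, ITGAM, ITGAX, ITGAD, ITGAE, ITGB2, ITGB7, ITGA2B and ITGB3 were listed separately, because epithelial cells are not known for most of them. Of these 9 genes 2 had a H3K18bu start region, ITGAD and ITGB7, and 1 had a H4K12bu start region, ITGB7, against 30.9% and 14.4% of all genes. At ITGAD, an α chain of macrophages, the H3K18bu pileups were 14 and 12. At ITGB7, the β chain of gut-homing lymphocytes, they were 21 and 14, and the region, GRCh38 chr12:53206366-53206449, lay inside the gene. ITGAL had listed H3K18bu peaks of both replicates near its start, at pileups of 10 and 8, that shared no base. ITGB2, the β chain of the leukocyte integrins, had 8 H3K18bu regions in its body, 0.174 per kb, and ITGAM, an α chain of macrophages and granulocytes, had no H4K12bu region in its body in either replicate. Among markers of other cell types, 4 of 7 leukocyte genes had a H3K18bu start region (CD79A, CSF1R and SPI1 among them) and 3 of 7 a H4K12bu start region (CD79A, CSF1R and SPI1), while CD3E, LYZ and PTPRC had neither. The epithelial list gave 1 of 12 (VIL1) for H3K18bu and 2 of 12 (KRT8 and KRT18) for H4K12bu, with no start region of either mark at EPCAM, CDH1 or CDX2. Mesenchymal genes gave 3 of 12 for H3K18bu (COL1A2, COL6A3 and TWIST2) and 1 of 12 for H4K12bu (COL1A2). Peaks do not measure expression, and what these starts say of the cells was not tested.

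Of 27 other adhesion genes on a list of linkers, signalling partners and basement membrane proteins, 10 had a H3K18bu start region and 4 a H4K12bu start region. These shares were 37% and 14.8%, against 30.9% and 14.4% of all genes. The 10 included ACTN1 and ACTN4, actin crosslinkers, FERMT1, an epithelial kindlin that activates integrins, LIMS1 and PARVA, which bind integrin-linked kinase, and NID1 and NID2, nidogens that link laminin to collagen. DST, a plakin of hemidesmosomes, TNS1 and ZYX, proteins of focal adhesions, made up the rest. For H4K12bu they were BCAR1, FERMT3, NID1 and TNS1.

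The mouse lists were sparser. The 4 Kbu libraries held 50645 to 96332 joined regions and the 4 Kac libraries 297745 to 299480. A pileup of 1 fragment was enough for 89.2% to 91.4% of Kbu peaks, and 1.47% to 2.33% of Kbu regions passed a q of 0.05. The mouse table used here gives no strand, so a region within 1 kb of either end of a gene was counted. Itga6 was among 2 of 37 members that had such a H3K18bu region in both replicates, 5.41% against 6.66% of all genes. Itga5, Lamb2 and Lamc1, 3 of 37, had a H4K12bu region, 8.11% against 16.1% of all genes. H3K18ac gave 12 of 37 members, 32.4% against 23.7% of all genes. H4K12ac gave 8 of 37, 21.6% against 26.9%. Which side of genes at large the members fell on was not stable. In single replicates H3K18bu gave 12 and 13 of 37 members against 26.8% and 23.6% of all genes, and H4K12ac gave 22 and 26 against 53% and 62.7%, both above genes at large. None of these differences was tested. In whole tissue, fewer cells of a type and less of a mark per cell cannot be told apart. For 9 of 37 members, such as Lama5, Lamb2 and Itgb4, another gene ends or starts within 1 kb of a gene end, and the region cannot be assigned to either.

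The mouse Kbu gene ends rested on few fragments. Itga6 had H3K18bu pileups of 2 and 1 with −log10 p of 5.39 and 3.03, and for H4K12bu Itga5 had 1 and 1, Lamc1 had 1 and 1, and Lamb2 had 1 and 2. None of the 22 H3K18bu and 13 H4K12bu regions of both replicates in members passed a q of 0.05 in both replicates, and 15 and 13 of them had a pileup of 1 in at least 1 replicate. Itgb4 had H3K18bu peaks of pileup 2 in both replicates near its gene ends that shared no base, as did Itgb8, Itgb1 and Lamb2 with a pileup of 1. For H4K12bu the same held for Itgb5, with a pileup of 1 in both replicates.

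In gene bodies a H3K18bu region of both replicates was found in 12 members (13.4% of all genes) and a H4K12bu region in 10 (21.9% of all genes). A H3K18ac region was found in 27 members (41.1% of all genes) and a H4K12ac region in 28 (44.7% of all genes). These counts are not matched for length, and the members had a median length of 62.5 kb against 17.2 kb for all mouse genes. Pooled over all their bases, the members held 0.00633 H3K18bu regions per kb of gene against 0.00453 for all genes, and 0.00374 H4K12bu regions per kb against 0.00642. For regions of both replicates the Kac densities were nearer to those of all genes, at 0.0236 against 0.0224 for H3K18ac and 0.0239 against 0.0231 for H4K12ac. In single replicates this order did not hold throughout. H3K18ac gave 0.151 and 0.181 per kb against 0.143 and 0.141, and H4K12ac 0.191 and 0.149 against 0.135 and 0.154. H3K18bu gave 0.0377 and 0.0311 against 0.033 and 0.0275, and H4K12bu 0.0253 and 0.0558 against 0.0295 and 0.0573.

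Several Kac gene ends rested on more fragments. Itga2, the mouse collagen receptor α chain, had H3K18ac pileups of 5 and 10 with −log10 p of 6.05 and 10.7, and H4K12ac pileups of 6 and 9 with −log10 p of 6.79 and 8.13. Itga6 and Lama3 had H3K18ac regions, with pileups of 4 and 6 and of 3 and 4. Itga1 for H4K12ac had 5 and 7, and Lamb2 had 4 and 8. Peaks that shared no base between replicates lay at Lama4 for H3K18ac, with pileups of 2 and 4, and at Itgb1 and Lamc1 for H4K12ac, with pileups of 3 and 4 and of 2 and 4. Other shared H3K18ac regions were thinner, with pileups of 1 and 2 for Itga2b, 2 and 2 for Itgb7 and Lamb2, and 2 and 3 for Itgb1. In the leukocyte and platelet group 2 of 9 genes had a H3K18ac gene-end region, Itga2b and Itgb7, and none had a region of the other 3 marks. Of 12 epithelial markers 7 had a gene-end region for H3K18bu, 3 for H4K12bu, 6 for H3K18ac and 2 for H4K12ac, and 0 of 12 mesenchymal markers had one for any of the 4 marks. Of the 27 adhesion genes 2 had a H3K18bu gene end, 8 a H4K12bu, 9 a H3K18ac and 12 a H4K12ac gene end. The shares of all genes were 6.66%, 16.1%, 23.7% and 26.9% in the same order.

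By the lower −log10 p of the replicates, Lamb3 held the strongest H3K18bu region of any mouse member. It held 3 H3K18bu regions in all near its RefSeq starts. The first of these starts, at GRCm38 chr1:193301994, lies 7.64 kb inside the gene as the table gives it, and the second is at 193302243. The H3K18bu region chr1:193301262-193301502, upstream of the first of these starts, had pileups of 6 and 3 and −log10 p of 8.61 and 5.38. A second region, chr1:193301897-193302040, covered that start and the last bases of the mouse stretch printed above, with pileups of 2 and 2. Within 1 kb of that start every one of the 8 mouse libraries listed a peak. There the highest pileups were 6 and 3 in the H3K18bu and 4 and 3 in the H4K12bu libraries. The H3K18ac libraries reached 11 and 10 and the H4K12ac libraries 4 and 5. The H3K18bu region that was strongest by the lower −log10 p lay farther upstream, at chr1:193296032-193296297. It had pileups of 4 and 3 and −log10 p of 7.4 and 5.95, and the H3K18ac peaks there reached pileups of 13 and 12. Of 23 members with a RefSeq start in the table, Lamb3 was the 1 member with a start peak in all 8 libraries, 4.35% against 4.14% of 17492 genes. Kbu regions near a start inside the annotated gene were listed for LAMB3 in CCD841 cells and for Lamb3 in mouse large intestine. Whether the human and mouse starts correspond was not tested. In H3K18bu replicate 2 no peak within 1 kb of the first mouse start passed a q of 0.05.

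Some regions inside other mouse genes lay under more than 1 mark. Lama1, the α chain of early basement membranes, had a H3K18bu region at GRCm38 chr17:67741330-67741581 with pileups of 4 and 2. In the same stretch the H4K12ac pileups were 4 and 22, and H4K12bu regions of both replicates had a pileup of 1. The replicates of H4K12ac were far apart there. Itgb6 had a H3K18bu region at chr2:60689174-60689393 with pileups of 4 and 2, where H3K18ac reached 7 and 9 and H4K12ac 5 and 5. Over all members, 11 of 22 H3K18bu regions overlapped a H3K18ac region of both replicates, against 39.4% of such regions in all genes, and 3 of 13 H4K12bu regions overlapped a H4K12ac region, against 30.5%. No test was made of either share. Lama1 and Itgb6 were chosen after their values were seen.

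**Figure D4:**
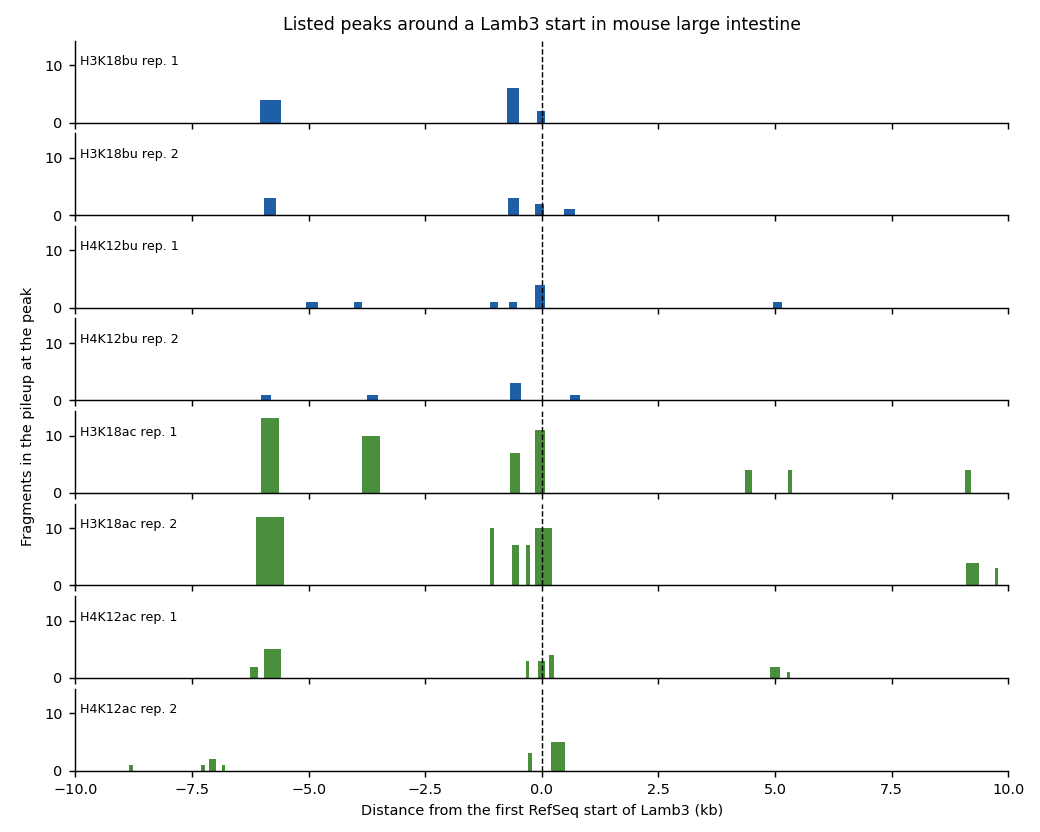
Listed peaks within 10 kb of the first RefSeq start of mouse Lamb3 (dashed line) in the 8 large intestine libraries, with Kbu in blue and Kac in green. Bar width is the peak and bar height the number of fragments in its pileup, and every library lists a peak within 1 kb of the line, with pileups of up to 6 in Kbu and up to 11 in Kac libraries.

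Kbu and Kac were compared in the mouse after the same number of strongest regions, 50645, was taken from each library, since the Kac lists are longer. That number was every region of H3K18bu replicate 2, where 90.6% of peaks had a pileup of 1. Regions per kb of gene, with 1 kb added at each end, were set side by side for the 4 Kbu and 4 Kac libraries. Lama5, the α chain of the laminin of mature gut epithelium, had 4 and 4 H3K18bu and 4 and 2 H4K12bu regions. It had 1 and 1 H3K18ac and 1 and 0 H4K12ac regions. Lamb1, the β chain of the most widespread laminins, had 3 and 4 H3K18bu and 3 and 3 H4K12bu regions, against 2 and 2 H3K18ac and 2 and 1 H4K12ac regions. In these 2 of 37 members the groups did not overlap, with Kbu higher, against 0.501% of 17960 genes. In 0 members was Kac higher without overlap, against 0.468% of genes. A group that is higher without overlap needs a region in each of its libraries. The members are longer than genes at large, so these shares are not matched for length.

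For Lama5 the mean was 0.0679 ± 0.0194 regions per kb in Kbu and 0.0146 ± 0.0097 in Kac libraries (SD, n = 4 each), with a two-sided exact permutation p of 0.0286, the smallest that 70 assignments allow. For Lamb1 it was 0.0489 ± 0.00752 against 0.0263 ± 0.00752, with the same exact permutation p. After Benjamini-Hochberg adjustment over all genes both had an adjusted exact permutation p of 1, and 0 of 17960 genes were called, although 174 had an unadjusted p under 0.05. By limma 0 genes were called as well, with 749 at an unadjusted p under 0.05, Lama5 being the 1 member among them. When every listed peak was counted, Lamb1 turned to Kac, 0.0489 against 0.256 per kb, with an exact permutation p of 0.0286, and Lama5 to 0.0776 against 0.131. Both directions therefore rest on taking equal numbers of regions. Means were higher in Kbu for 16 of 37 members, 43.2% against 46.2% of all genes. Each group of 4 libraries held 2 of each of 2 marks. No label says that they came from separate mice, and the exact permutation test treats them as separate.

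**Figure D5:**
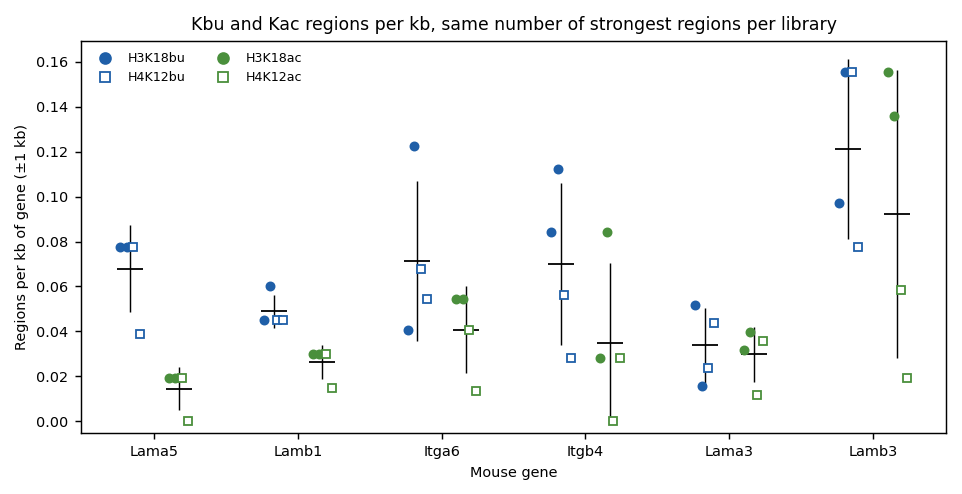
Regions per kb of gene for 6 mouse genes in the 4 Kbu (blue) and 4 Kac (green) libraries, among the same number of strongest regions per library. Circles are H3K18 and squares H4K12 libraries, and the horizontal and vertical lines are the mean and SD of 4 libraries, and the groups are apart for Lama5 and Lamb1 and overlap for the other 4 genes.

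The hemidesmosome genes overlapped between the groups. Lamb3 had 5 and 8 H3K18bu, 8 and 4 H4K12bu, 8 and 7 H3K18ac and 3 and 1 H4K12ac regions. Itga6 had 3 and 9, 5 and 4, 4 and 4, and 3 and 1 in the same order, and Itgb4 had 3 and 4, 2 and 1, 1 and 3, and 0 and 1. Lama3 had 13 and 4, 6 and 11, 8 and 10, and 3 and 9. Itga6 had the lowest exact permutation p of these 4 genes, 0.286 (n = 4 libraries a group). In none of them were the Kbu and Kac libraries apart.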

How the data were processed

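CUT&Tag peak lists of 12 libraries were analysed, 1 list per library. Per the submitters' processing notes, reads were processed with bcl2fastq 2.17.1, cutadapt 1.9.1, Bowtie2 2.3.1 and MACS2 2.1.0 on hg38 or mm10. The authors called peaks in each replicate separately, at a p of 0.01 and without a control library, and capped the lists. The authors deposited, for each peak, its fold ratio over the local background, its −log10 p and its −log10 q. The score column was not used. The pileup was solved from the deposited fold and −log10 p, and for at least 99.9997% of peaks a whole pileup gave the deposited −log10 p within 0.01. Overlapping rows were joined, and a region was kept where both replicates shared at least 1 bp. Genes came from GENCODE 44 and a RefSeq GRCm38.p6 table, and sequences from GRCh38 and RefSeq, where 23 of 37 mouse members had an entry. Starts and gene ends were searched within 1 kb.

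The 4 Kbu and 4 Kac mouse libraries were compared by a two-sided exact permutation test with Benjamini-Hochberg adjustment over genes, and by limma 3.58.1. Replicate numbers do not pair the samples, since no label ties a number to an animal or day. Code was tested on simulated data. Named genes were the 3 integrin and 3 laminin genes with the highest lower −log10 p at a start or gene end for each mark, the hemidesmosome and common integrin and laminin genes, the leukocyte and platelet integrins, and members whose Kbu and Kac groups did not overlap. The members and all lists were chosen with earlier results of these data known. Results that need withheld items are not reported here. With 2 replicates a mark no test between marks was made in CCD841 cells.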

Additional observations from a re-analysis of the deposited data

Results flagged for a closer look

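In the comparison of Kbu with Kac, 6 mouse genes were checked for a library that stood apart from the other 3 of its group, 12 groups in all, and 4 such values were found in Lama5 and Lamb1. In each of the 4 groups the other 3 libraries held the same number of regions, so any gap equals the whole range, and the usual rate of about 1 chance value in 20 groups does not apply to such small whole numbers. Each gap is a step of 1 or 2 regions. For Lama5 the lowest Kbu library, H4K12bu replicate 2, had 0.0388 regions per kb against 0.0776 in each of the other 3. The lowest Kac library for Lama5, H4K12ac replicate 2, had 0 against 0.0194. For Lamb1 the highest Kbu library, H3K18bu replicate 2, had 0.0602 against 0.0451 in the others. The lowest Kac library for Lamb1, H4K12ac replicate 2, had 0.015 against 0.0301.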

How the results depend on the processing

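In CCD841 cells the 12 genes with a H3K18bu start region were all kept at a q below 0.05 or 0.01, and 11 of 12 were kept when replicates had to share 100 bp or when every library gave the same number of regions, ITGB7 and ITGA11 being lost in turn. A window of 3 kb gave 20 members, against 38.9% of all genes, and the start of any transcript gave 23, against 43.4%. A single replicate gave 15 to 21, against 40.3% and 45.6%. For H4K12bu the 4 starts (14.4% of all genes) became 3 at a q below 0.05 (10.8%), 2 at a q below 0.01 (6.25%) and 2 with 100 bp shared (10.7%), 9 with a window of 3 kb (21.7% of all genes) and 13 with any transcript start (34.5%), and each replicate alone gave 8 (27.8% and 27.3%). ITGA4 was lost at both q limits and with 100 bp shared, LAMB3 at a q below 0.01, and ITGB7 with 100 bp shared. The median H3K18bu density of members, 0.0815 per kb, was 0.0608 with 100 bp shared and 0.144 to 0.152 in single replicates. The H4K12bu median, 0.0553 per kb, was 0.0263 at a q below 0.05, 0.0166 at a q below 0.01, 0.0309 with 100 bp shared, and 0.146 to 0.163 in single replicates. Medians of all genes are not set beside these values, so they do not show which side the members fell on. Pooled over all bases, the H3K18bu replicates alone gave members 0.13 and 0.142 per kb, against 0.0919 and 0.101 for all genes. The H4K12bu replicates alone gave 0.117 and 0.147, against 0.118 and 0.141.

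The mouse counts moved more. At a q below 0.05 the gene-end counts fell to 0 for H3K18bu, 0 for H4K12bu, 2 for H3K18ac and 4 for H4K12ac, against 0.0822%, 0.95%, 4.13% and 7.18% of all genes, and at a q below 0.01 to 0, 0, 2 and 2, against 0.0274%, 0.361%, 1.45% and 2.99%. A pileup of at least 2 left 0 for H3K18bu and 0 for H4K12bu, against 0.937% and 4.09%. With 100 bp shared there were 1 for H3K18bu, 7 for H3K18ac and 5 for H4K12ac, against 4.78%, 14.1% and 15.6%. A window of 3 kb gave 4 for H3K18bu, 5 for H4K12bu and 15 for H4K12ac, against 9.64%, 20.7% and 37.4% of all genes. With the same number of regions per library there were 0 for H4K12bu and 4 for H3K18ac, against 10.1% and 8.62%. With RefSeq starts in place of gene ends, which 23 of 37 members have, 0 of 2 H3K18bu, 1 of 3 H4K12bu, 6 of 12 H3K18ac and 5 of 8 H4K12ac calls were kept. Most lost members have no RefSeq start, but Lamb2 and Itga2b do. Lamb3 was gained for all 4 marks and Itgav for all but H4K12bu. Replicates 1 and 2 alone gave 12 and 13 members for H3K18bu (26.8% and 23.6% of all genes), 10 and 16 for H4K12bu (31.8% and 45.7%), 22 and 25 for H3K18ac (57.4% and 52.8%) and 22 and 26 for H4K12ac (53% and 62.7%).

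In the comparison of Kbu with Kac, counting every listed peak gave 18 members whose groups did not overlap, against 23.3% of genes. All 18 had Kac higher, and the Kac lists are the longer ones. The difference of Kbu minus Kac then became −0.0534 regions per kb for Lama5 (exact permutation p = 0.429) and −0.207 for Lamb1. A q below 0.05 gave 0 members, against 0.194% of genes, and limma gave 0 of all genes. With covered length, 3 members did not overlap, Lamb1 with Kbu higher and Itgav and Itga2 with Kac higher, against 3.9% of genes, where the main comparison had 0.969%. Leaving out each library in turn gave 2 to 3, against 1.8% to 3.02% of genes. Without any 1 of the Kac libraries the Lama5 exact permutation p was 0.0571. With a replicate block, permuting only within replicate numbers, Lama5 and Lamb1 both had a block permutation p of 0.0556. This is the smallest p that 36 assignments allow, so no gene could reach 0.05, and 1.58% of genes had it. That share counts genes by p and not by overlap. Over genes, the difference between replicates 1 and 2 of a mark was correlated with that of another mark. The correlations of −0.0502 to 0.0216 gave no sign that the numbers pair the libraries. Peak lists hold no reads, so depth was not known, and 89.2% to 91.4% of mouse Kbu peaks had a pileup of 1. The cause of these changes was not tested.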

Other observations

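Markers of other cell types were also read in the CCD841 lists. Of 6 smooth muscle genes, ACTA2 and ACTG2 had a start region for H3K18bu and for H4K12bu. Of 5 endothelial genes, CDH5 and VWF had a H3K18bu start region and CDH5 a H4K12bu start region. None of 3 platelet and erythroid genes had one for either mark. The shares of all genes were 30.9% for H3K18bu and 14.4% for H4K12bu. In the mouse lists 0 of 6 smooth muscle genes had a gene-end region for any of the 4 marks. Leukocyte genes gave 0 of 7 for H3K18bu, 1 for H4K12bu, 3 for H3K18ac and 1 for H4K12ac. Of 5 endothelial genes Kdr, and of 2 platelet and erythroid genes Gp9, had a H3K18ac gene-end region, and none of either list had one for the other 3 marks. The shares of all genes were 6.66% for H3K18bu, 16.1% for H4K12bu, 23.7% for H3K18ac and 26.9% for H4K12ac.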
